A study of Canis lupus familiaris with 45 samples.

Results

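Adiponectin, its receptors ADIPOR1 and ADIPOR2, and T-cadherin (CDH13), a membrane protein that binds adiponectin, were followed in dog subcutaneous fat. The members were all probe sets that the platform annotation gives the symbols ADIPOQ, ADIPOR1, ADIPOR2 or CDH13, which were 9 of 43035 probe sets. ADIPOQ had 2 probe sets, ADIPOR1 had 1, ADIPOR2 had 4 and CDH13 had 2. All 9 were above a log2 value of 4 on each of the 45 arrays and were among the 22690 probe sets tested. The tissue came from 9 intact female beagles that were 4 years old and had been randomized. In the ad libitum group 5 dogs (2, 5, 6, 7 and 8) ate freely, and in the control group 4 dogs (1, 3, 4 and 9) were fed to hold their baseline body weight. Every dog received Purina Pro Plan Performance Formula and gave fat after an overnight fast at weeks 0, 4, 8, 12 and 24, with 1 array per dog and week. Week 0 preceded the difference in feeding.

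Adiponectin is a hormone made almost entirely by adipocytes. It is assembled into trimers and larger multimers in the endoplasmic reticulum and is unusual among fat hormones in that its level in human blood is lower in obesity, while leptin's is higher. ADIPOR1 and ADIPOR2 are multi-pass membrane proteins of the PAQR family that carry ceramidase activity, and they are tied to AMP-activated kinase and PPARα signalling. CDH13, an atypical cadherin held in the membrane by a lipid anchor, retains the large multimers at the surface of endothelial, muscle and mesenchymal cells.

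The arrays were not uniform. Skeletal muscle transcripts were present on 10 of the 45 arrays, where the mean of 23 measured muscle genes lay between 8.20 and 14.59, against 3.79 to 5.65 on the other 35. These included 3 of 5 ad libitum and 2 of 4 control arrays at week 0, and 0 of 5 ad libitum and 2 of 4 control arrays at week 24. The gap between the 3′ and 5′ actin probe sets, which widens as RNA degrades, was 1.75 ± 0.24 in ad libitum and 3.00 ± 0.27 in control dogs at week 4, and 3.51 ± 0.91 in ad libitum and 4.79 ± 1.20 in control dogs at week 24 (SD, n = 5 and 4). All week-24 arrays formed laboratory batch 6, so a change from week 0 to week 24 cannot be told apart from a change of batch. At week 4 the feeding groups shared no batch. By the 100 probe sets that best separated the dogs, 43 of 45 arrays matched their labelled dog, while the week-8 arrays labelled dog 5 (ad libitum) and dog 9 (control) matched each other. The adipocyte list was measured for all 15 genes, among them FABP4, a fatty acid carrier, at 15.35 to 16.09 on all arrays. The endothelial gene PECAM1 was also present, at 11.60 to 13.63.

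**Figure D1:**
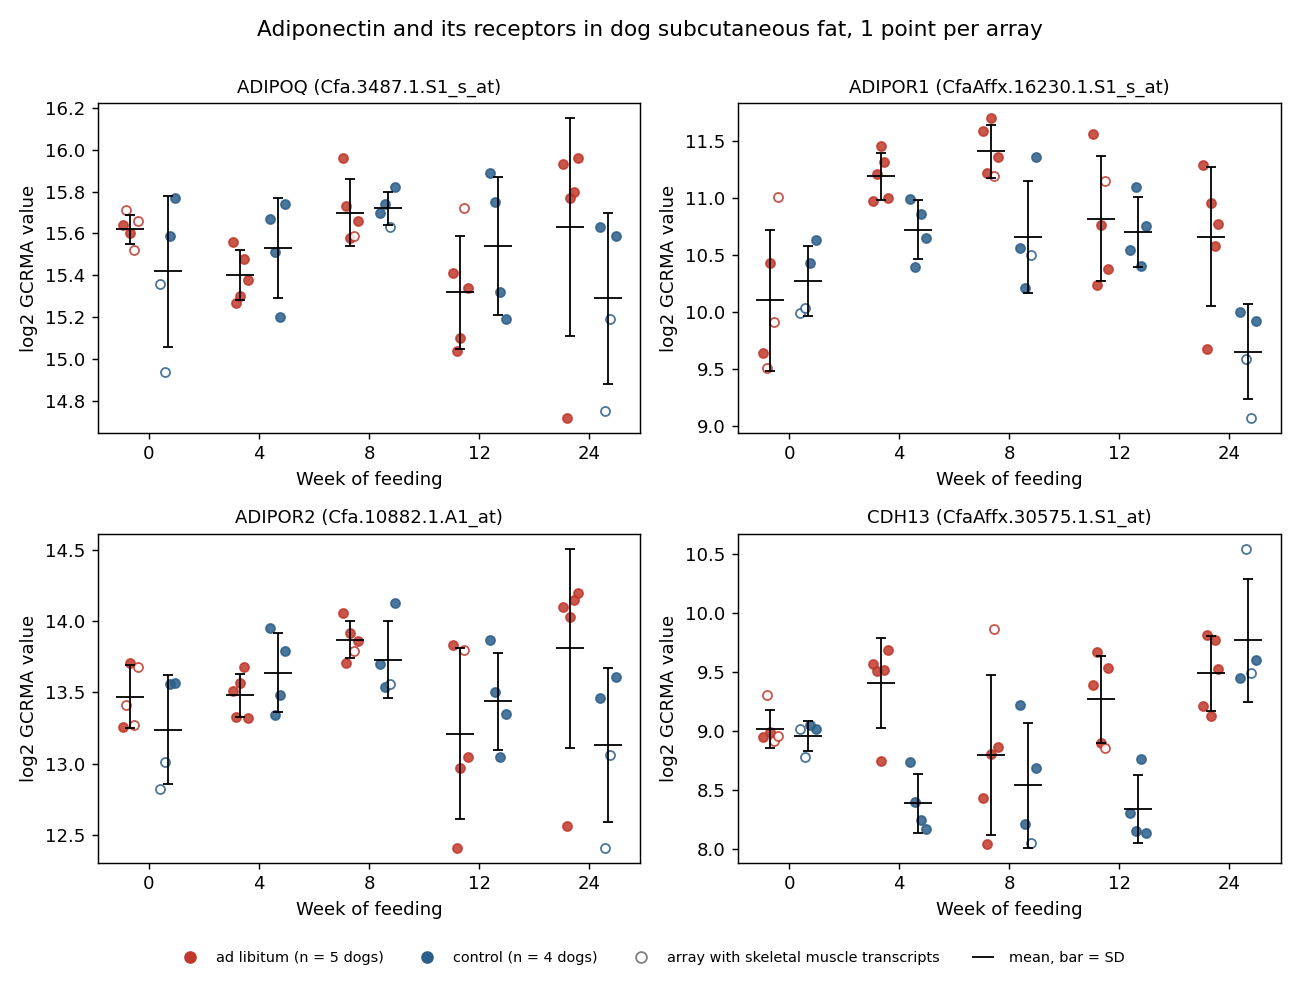
Log2 GCRMA value (y axis) of the brightest probe set of each gene by week of feeding (x axis), 1 point per array. Ad libitum dogs (red) stand left of control dogs (blue), open points are arrays with skeletal muscle transcripts, and black bars are the mean and SD. ADIPOQ keeps within 14.72 to 15.96 and ADIPOR1 runs from 9.07 to 11.70. CDH13 at this probe set separates the groups at weeks 4 and 12, with neither difference called.

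Levels were read within each probe set, because probes differ in brightness and different probe sets cannot be ranked. At the brighter ADIPOQ probe set, Cfa.3487.1.S1_s_at, the lowest, median and highest of the 45 log2 values were 14.72, 15.59 and 15.96, with a pooled SD within groups of 0.29. ADIPOR1, seen by CfaAffx.16230.1.S1_s_at alone, had 9.07, 10.65 and 11.70, with a pooled SD of 0.43. The brightest ADIPOR2 probe set, Cfa.10882.1.A1_at, had 12.41, 13.56 and 14.20 (pooled SD 0.41). The ADIPOQ values lay in the upper part of a scale whose highest value was 17.51, and whether signal there is compressed was not tested. CDH13 at CfaAffx.30575.1.S1_at had 8.04, 8.99 and 10.55 (pooled SD 0.40).

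ADIPOQ, the ligand, showed no called difference between feeding groups at any week. At week 24, after the longest period of free feeding, Cfa.3487.1.S1_s_at read 15.93, 14.72, 15.77, 15.80 and 15.96 in ad libitum dogs 2, 5, 6, 7 and 8, against 15.63, 14.75, 15.19 and 15.59 in control dogs 1, 3, 4 and 9. The ad libitum values overlapped the control range only through dog 5, the lowest of all 9 dogs, and the other 4 ad libitum dogs lay above every control dog. The fitted difference was 0.35 (SE 0.198; limma adjusted p = 0.301). The companion probe set Cfa.3487.1.S1_at gave 0.21 (adjusted p = 0.480), with dog 5 again lowest in its group at 14.88. Without dog 5 the difference at Cfa.3487.1.S1_s_at was 0.58 (adjusted p = 0.0275), so that dog decides the call. In that setting 13.6% of all tested probe sets were called.

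At the earlier weeks ADIPOQ differences were smaller or of the other sign. At week 4 the ad libitum dogs had 15.56, 15.27, 15.30, 15.48 and 15.38, and the control dogs 15.67, 15.51, 15.20 and 15.74, a fitted difference of -0.37 (SE 0.233; adjusted p = 0.585). The groups overlapped, with control dog 4 lowest of all 9. Measured against week 0, all 5 ad libitum dogs were lower at week 4, by a mean change of -0.23 ± 0.16 (SD), while the control dogs changed by 0.12 ± 0.42. The fitted differences were 0.25 at week 0, -0.02 at week 8 and -0.18 at week 12, none with an adjusted p under 0.719. Their 95% confidence intervals over the 5 weeks reached from -0.84 at week 4 to 0.75 at week 24, which is the precision that 5 and 4 dogs allowed.

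Ordered by group mean, ADIPOQ was highest at week 8, in ad libitum dogs (15.70 ± 0.16, SD) and control dogs (15.72 ± 0.08), and lowest in ad libitum dogs at week 12 (15.32 ± 0.27) and control dogs at week 24 (15.29 ± 0.41). No neighbours in the order of 10 groups were more than 0.12 apart, which is less than the pooled SD. LEP, the gene of leptin, the other main hormone of adipocytes, averaged 12.49 ± 0.69 in ad libitum and 9.78 ± 1.19 in control dogs at week 24 (SD), a fitted difference of 2.70 (adjusted p = 0.0233). Whether the 2 genes' responses differ was not tested.

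ADIPOR1, the receptor tied mainly to AMP-activated kinase, was the one member called between the feeding groups. At week 24 it read 11.29, 9.67, 10.96, 10.58 and 10.77 in ad libitum dogs 2, 5, 6, 7 and 8, against 10.0001, 9.59, 9.07 and 9.92 in control dogs 1, 3, 4 and 9. All but dog 5 of the ad libitum dogs lay above every control dog. The fitted difference was 1.01 (SE 0.271), a 2.01-fold higher level, with a limma adjusted p of 0.0248. This made 1 of 9 member probe sets called at week 24, where 5.46% of all tested probe sets were called.

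The week-24 call for ADIPOR1 held under some treatments of the array differences and not under others. The control arrays with muscle transcripts (dogs 3 and 4) held the lowest values of week 24. With the muscle mean as a covariate the difference was 0.96 and stayed called (adjusted p = 0.0389), while leaving out the muscle arrays, and with them 2 of the 4 control arrays of week 24, gave 0.73 (adjusted p = 0.310). Adding the actin 3′ to 5′ gap as a covariate gave 0.57 (adjusted p = 0.487). In these last 2 fits 0.282% and 0.128% of all tested probe sets were called. The call was also lost without dog 2, 3, 4, 6 or 7 (0.82 to 1.03, adjusted p = 0.0586 to 0.155). On the arrays of week 24 alone the exact permutation test over dogs gave p = 0.0317 before adjustment and 0.175 after it. As a change from week 0 compared between groups, the feeding effect at week 24 was 1.03 (SE 0.387; adjusted p = 0.366). In intact tissue of this kind, fewer cells of a type and less RNA per cell cannot be told apart.

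ADIPOR1 rose in the ad libitum dogs between week 0 and week 8. The dogs 2, 5, 6, 7 and 8 had 11.59, 11.22, 11.70, 11.19 and 11.36 at week 8, against 9.64, 9.51, 10.43, 9.91 and 11.01 at week 0. Each dog was higher at week 8, by 0.35 to 1.96, and every week-8 value lay above every week-0 value. The share of all tested probe sets with such a gap between weeks was not counted. The actin gap of these dogs was 2.85 ± 1.00 at week 0 and 1.74 ± 0.27 at week 8 (SD). The fitted change of ADIPOR1 was 1.24 (SE 0.270; adjusted p = 0.0116), a 2.36-fold rise. It made 1 of 9 members called in a contrast where 6.73% of all tested probe sets were called. The call held when the muscle arrays were left out (1.54, adjusted p = 0.0226), when the actin gap was added to the fit (1.04, adjusted p = 0.0338), and when the week-8 arrays labelled dogs 5 and 9 were dropped (1.26, adjusted p = 0.0171). It lost the call without dog 2 (adjusted p = 0.108) or dog 5 (adjusted p = 0.0952).

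**Figure D2:**
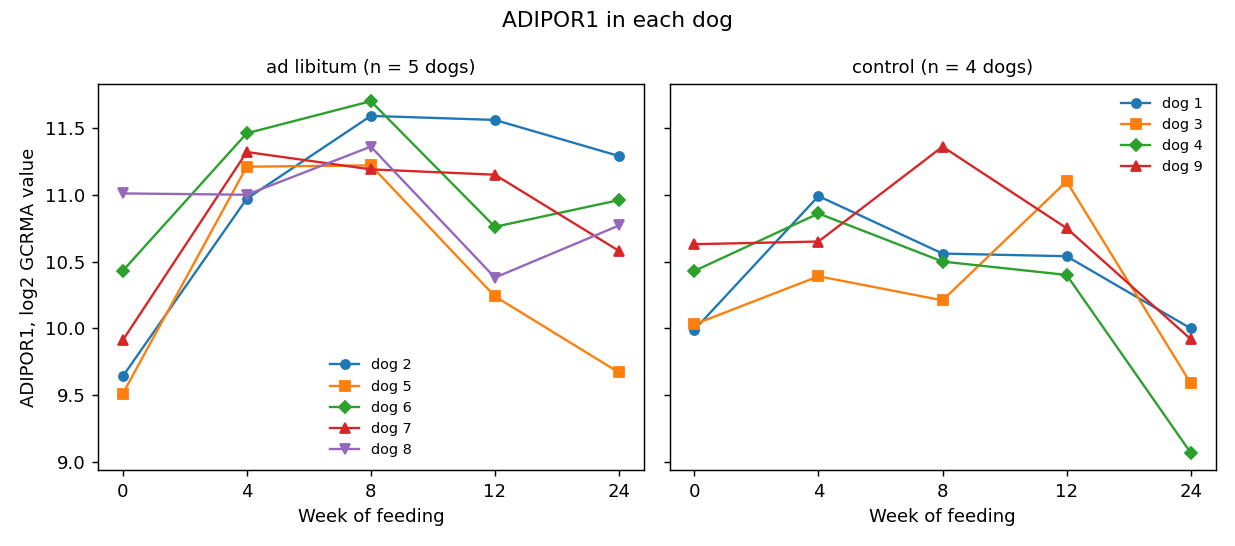
ADIPOR1 in each dog, as log2 GCRMA value (y axis) by week of feeding (x axis), with ad libitum dogs at left and control dogs at right. All 5 ad libitum lines are higher at week 8 than at week 0 (11.19 to 11.70 against 9.51 to 11.01), while every control line ends lower at week 24 than every ad libitum line but that of dog 5 (9.67).

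Control dogs 1, 3, 4 and 9 had ADIPOR1 at 10.56, 10.21, 10.50 and 11.36 at week 8, against 9.99, 10.03, 10.43 and 10.63 at week 0. All 4 were higher at week 8, but the values of the 2 weeks overlapped, and the fitted change was 0.42 (adjusted p = 1.00). In that contrast 0% of all tested probe sets were called. As a change from week 0 compared between groups, the feeding effect at week 8 was 0.82 (SE 0.385; limma adjusted p = 0.571). A larger rise in ad libitum than in control dogs was thus not called. The difference between the groups at week 8 was 0.80 (SE 0.272; adjusted p = 0.0843). Within the 4 batches that held both groups at week 8 (1, 3, 4 and 5), it was 0.86, 0.84, 0.99 and 0.35, with the arrays as labelled. Batch 3 held the array labelled dog 5, and batch 5 had the array labelled dog 9 as its only control. These are the arrays that matched each other's dog. If they were exchanged, batch 5 would hold no control dog, so the same sign in all 4 batches is not established. At week 4 the ad libitum dogs had 10.97, 11.21, 11.46, 11.32 and 11.00, with a fitted change of 0.97 from week 0 (adjusted p = 0.106) that passed the threshold with no batch term (1.10, adjusted p = 0.0256).

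The 2 feeding groups had similar ADIPOR1 at week 12, where the ad libitum dogs read 11.56, 10.24, 10.76, 11.15 and 10.38 and the control dogs 10.54, 11.10, 10.40 and 10.75. The fitted difference was 0.01 with a 95% confidence interval of -0.59 to 0.61. Over the 10 groups the means ran from 11.41 ± 0.23 in ad libitum dogs at week 8 and 11.19 ± 0.21 in ad libitum dogs at week 4 to 9.65 ± 0.42 in control dogs at week 24 (SD). A single step in that order was wider than the pooled SD, that of 0.45 between ad libitum dogs at week 0 (10.10 ± 0.62) and control dogs at week 24.

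ADIPOR2, the receptor tied mainly to PPARα signalling, was read by 4 probe sets whose changes from week 0 to week 24 differed in size in control dogs and in sign in ad libitum dogs. Control dogs 1, 3, 4 and 9 had 9.40, 8.30, 8.66 and 9.69 at CfaAffx.24419.1.S1_at at week 24, against 10.34, 10.46, 10.70 and 11.16 at week 0. All 4 dogs were lower at week 24 and the 2 weeks did not overlap, though the share of all tested probe sets that did the same was not counted. The fitted change was -1.62 (SE 0.434; adjusted p = 0.0177), and it was 1 of 9 members called in a contrast where 7.92% of all tested probe sets were called. The call held with the muscle mean as a covariate (-1.66, adjusted p = 0.0195). It was lost when the muscle arrays, 2 of the 4 control arrays at either week, were left out (-1.12, adjusted p = 0.607) and when the actin gap was added to the fit (-1.17, adjusted p = 0.555), where 0.101% and 0.0353% of all tested probe sets were called. It was also lost when dog 3 (adjusted p = 0.213), dog 4 (0.0508) or dog 9 (0.0897) was dropped.

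The brightest ADIPOR2 probe set changed less. At Cfa.10882.1.A1_at the control dogs had 13.46, 12.41, 13.06 and 13.61 at week 24, against 12.82, 13.01, 13.56 and 13.57 at week 0. Dogs 1 and 9 were higher at week 24 and dogs 3 and 4 lower, with a fitted change of -0.10 (adjusted p = 0.875). The probe sets CfaAffx.24419.1.S1_s_at and Cfa.1030.1.S1_at gave -1.33 (adjusted p = 0.0669) and -1.08 (adjusted p = 0.180). In ad libitum dogs the fitted changes were 0.25 at Cfa.10882.1.A1_at and -0.77, -0.77 and -0.45 at the other three, none called. Across the 45 arrays CfaAffx.24419.1.S1_at and CfaAffx.24419.1.S1_s_at correlated at 0.98, and Cfa.10882.1.A1_at with CfaAffx.24419.1.S1_at at 0.71, as a description of probe sets that share every array.

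**Figure D3:**
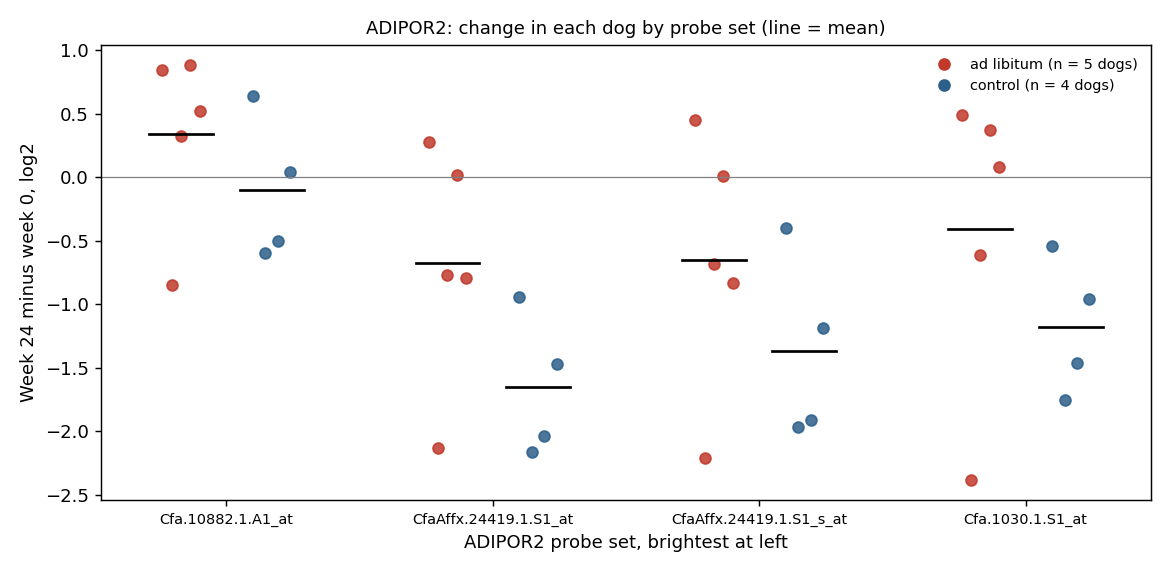
Week 24 minus week 0 (log2, y axis) for each dog at the 4 ADIPOR2 probe sets (x axis, brightest at left), with ad libitum dogs in red left of control dogs in blue and black lines for the means. The control means are -0.11 at Cfa.10882.1.A1_at and -1.65 at CfaAffx.24419.1.S1_at, and the lowest ad libitum point of each probe set is dog 5.

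Between feeding groups at week 24, all 4 ADIPOR2 probe sets were higher in ad libitum dogs without reaching the threshold. CfaAffx.24419.1.S1_at had 10.91, 8.41, 10.51, 10.85 and 10.76 in ad libitum dogs, against 9.40, 8.30, 8.66 and 9.69 in control dogs. Dog 5 alone lay inside the control range. The difference was 1.28 (SE 0.410; adjusted p = 0.0584). At Cfa.10882.1.A1_at the ad libitum dogs had 14.10, 12.56, 14.03, 14.15 and 14.20, a difference of 0.68 from the control values given above (SE 0.270; adjusted p = 0.128). Without dog 5 these 2 differences were 1.75 (adjusted p = 0.00125) and 0.99 (adjusted p = 0.00517), again with 13.6% of all tested probe sets called.

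The array of dog 5 at week 24 differed from its group in cell markers too. Its mean over the 15 adipocyte markers was 11.41, against 13.15 to 13.51 in the other 4 ad libitum dogs. Its mean over the 12 measured macrophage markers was 11.10, against 8.93 to 9.95. The adipocyte markers averaged 12.90 ± 0.85 in ad libitum and 11.74 ± 0.60 in control dogs at week 24 (SD), the same direction as ADIPOR1 and ADIPOR2. The part of these markers in the receptor differences was not tested.

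At weeks 4 and 12 the ADIPOR2 differences had the opposite sign. At week 4 CfaAffx.24419.1.S1_at had 10.52, 10.57, 11.09, 10.99 and 10.08 in ad libitum dogs, against 11.23, 11.28, 11.65 and 11.44 in control dogs. Every ad libitum dog was below every control dog, and the fitted difference was -0.99 (SE 0.484; adjusted p = 0.547). At week 12 it had 11.04, 9.03, 9.56, 10.94 and 9.33 in ad libitum dogs, against 11.21, 11.70, 10.24 and 10.97 in control dogs, a difference of -1.11 (SE 0.445; adjusted p = 0.451). Ad libitum dogs 5, 6 and 8 were below all control dogs, while dogs 2 and 7 lay among them. The adipocyte marker means of dogs 5, 6 and 8 were 11.61, 11.99 and 12.18 at week 12, against 12.89 and 13.03 in ad libitum dogs 2 and 7, and those of control dogs 1, 3, 4 and 9 were 13.04, 12.69, 12.07 and 12.46. Their fibroblast and preadipocyte marker means were 14.13, 13.70 and 13.71, against 13.08 and 13.44 in dogs 2 and 7 and 12.73 to 14.06 in control dogs, and the part of these markers in the difference was not tested. Within the 2 batches that held both groups at week 12, with 1 dog of each group, the difference was -1.41 and -2.37.

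At the other 3 ADIPOR2 probe sets the differences at week 12 were -0.23, -1.07 and -0.86. The joint test of the feeding effects at weeks 4, 8, 12 and 24 gave F = 5.53 for CfaAffx.24419.1.S1_at (adjusted p = 0.144), the largest F of the members. None of the 9 members was called in it, and 0.0132% of all tested probe sets were. By group mean, Cfa.10882.1.A1_at ran from 13.87 ± 0.13 in ad libitum dogs at week 8 and 13.81 ± 0.70 in ad libitum dogs at week 24 to 13.13 ± 0.54 in control dogs at week 24 (SD). Its neighbours in that order were at most 0.20 apart, less than the pooled SD.

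CDH13, the binding protein for large adiponectin multimers, separated the feeding groups at weeks 4 and 12 at CfaAffx.30575.1.S1_at, though neither difference was called. The groups shared no batch at week 4, when the actin gap was 1.75 ± 0.24 in ad libitum and 3.00 ± 0.27 in control dogs (SD). At week 4 CfaAffx.30575.1.S1_at had 9.57, 9.51, 8.75, 9.52 and 9.69 in ad libitum dogs, against 8.74, 8.40, 8.25 and 8.17 in control dogs. The groups did not overlap, though the lowest ad libitum dog, dog 6, exceeded the highest control dog, dog 1, by little. The raw means were 1.02 apart, and the fitted difference, with its batch term, was 0.76 (SE 0.322; adjusted p = 0.496). Ranges that did not overlap were found at 4.74% of all tested probe sets at week 4, and at 2 of the 9 members, CDH13 and the ADIPOR2 probe set above.

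At week 12 the same CDH13 probe set had 9.39, 9.67, 8.90, 8.86 and 9.54 in ad libitum dogs, against 8.31, 8.15, 8.76 and 8.14 in control dogs. Again every ad libitum dog was higher. The fitted difference was 1.06 (SE 0.296; limma adjusted p = 0.451), or 2.08-fold, and the 2 batches that held both groups gave 0.76 and 1.39. Non-overlapping ranges were found at 1.6% of all tested probe sets in that week and at 1 of 9 members. The exact permutation test of the change from week 0 to week 12 gave p = 0.00794, the smallest that 126 splits of the dogs allow, and an adjusted p of 0.999. The second CDH13 probe set, Cfa.20814.1.S1_s_at, had a difference of 0.57 at week 4 and 0.95 at week 12, with overlapping groups in both weeks.

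At CfaAffx.30575.1.S1_at the changes of CDH13 from week 0 had opposite signs in the feeding groups at weeks 4 and 12, and none was called. Ad libitum dogs changed by 0.38 ± 0.40 and control dogs by -0.57 ± 0.29 at week 4, and ad libitum dogs by 0.25 ± 0.30 and control dogs by -0.62 ± 0.25 at week 12 (mean of the dogs' changes, SD). At Cfa.20814.1.S1_s_at the ad libitum dogs had a fitted change of -0.00078 at week 4 and 0.30 at week 12, against -0.66 and -0.74 in the control dogs. CDH13 is made by endothelial cells among others. The mean of 13 measured endothelial markers was 9.41 ± 0.16 in ad libitum and 9.60 ± 0.15 in control dogs at week 4, and 9.36 ± 0.21 in ad libitum and 9.30 ± 0.10 in control dogs at week 12. Fibroblast and preadipocyte markers, with 11 of 12 genes measured, averaged 13.38 ± 0.21 in ad libitum and 12.72 ± 0.43 in control dogs at week 4. At week 12 they averaged 13.61 ± 0.39 in ad libitum and 13.46 ± 0.57 in control dogs. The part of these markers in the CDH13 differences was not tested.

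At week 24 CDH13 was at its highest group means in both groups. CfaAffx.30575.1.S1_at had 9.21, 9.82, 9.13, 9.77 and 9.53 in ad libitum dogs, against 9.45, 10.55, 9.49 and 9.60 in control dogs. The groups overlapped and the difference was -0.28 (SE 0.273; adjusted p = 0.581). The other probe set gave 0.29, of the opposite sign. The highest value of all, 10.55, was that of control dog 3, whose array also carried muscle transcripts and the highest fibroblast mean of the week, 14.23. Group means ran from 9.77 ± 0.52 in control dogs at week 24 to 8.34 ± 0.29 in control dogs at week 12 (SD), and neighbours in the order were at most 0.28 apart, less than the pooled SD.

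**Figure D4:**
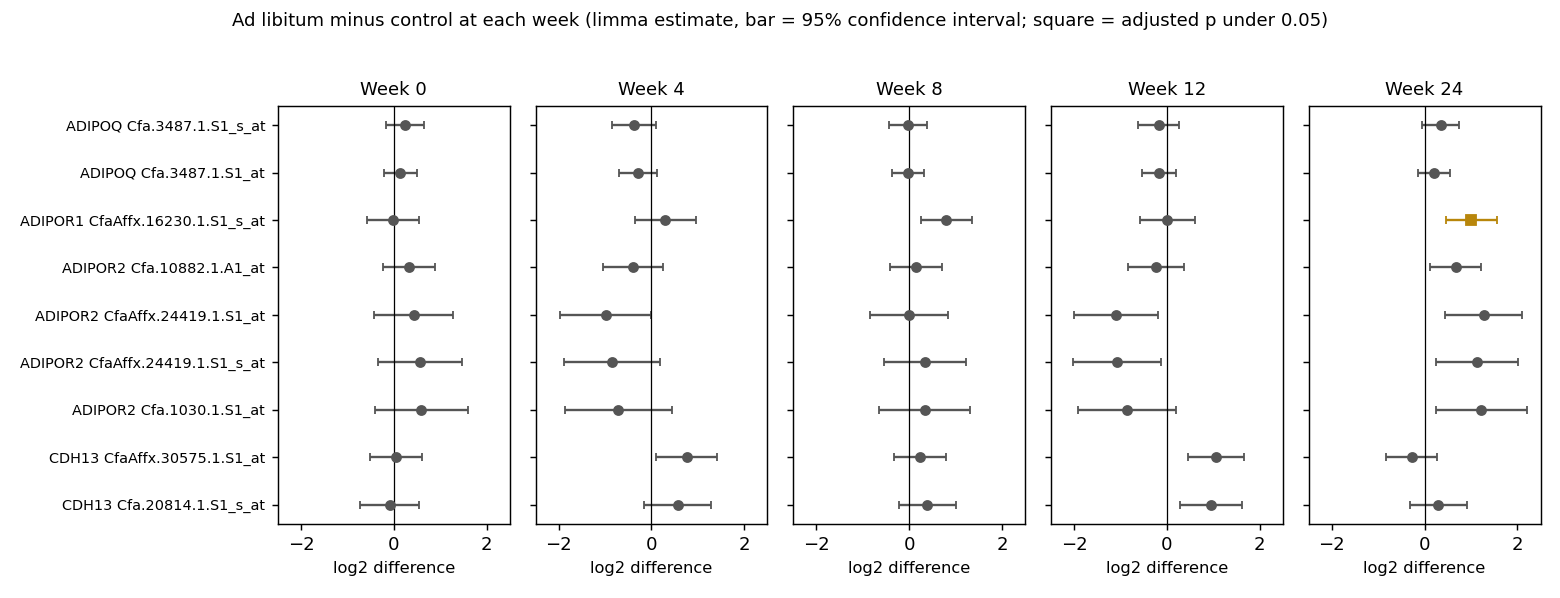
Ad libitum minus control log2 difference (x axis) of each of the 9 probe sets (rows) at weeks 0, 4, 8, 12 and 24 (panels), as limma estimates with 95% confidence intervals. The single square marks the probe set with an adjusted p under 0.05, ADIPOR1 at week 24 (1.01). ADIPOR2 estimates lie below 0 at weeks 4 and 12 and above 0 at week 24, and those of CDH13 lie above 0 at weeks 4 and 12.

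Over all members, 0 of 9 probe sets were called between the groups at week 0 (background 0%), week 4 (0.0132%), week 8 (1.42%) and week 12 (0.00441%). At an unadjusted p under 0.05 these comparisons held 312, 2061, 5669 and 2510 probe sets in all. The feeding effect, the change from week 0 in ad libitum minus control dogs, had 0 of 9 called at weeks 4, 8 and 12 and in the mean of the weeks, where the background was 0%, and at week 24, where it was 0.022%. None of the 9 probe sets had non-overlapping groups at week 24, against 9.75% of all tested probe sets. At week 8 none did either, with a background of 3.76%, nor at week 0, with 0.207%. Within the ad libitum dogs, 0 of 9 were called from week 0 to weeks 4 (background 0.498%), 12 (0.802%) and 24 (4.78%). Within the control dogs, 0 of 9 were called from week 0 to weeks 4 (0.00441%), 8 and 12 (both 0%).

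Stable differences between the dogs were not called for any member, while 2.51% of all tested probe sets were called in the test of dog within feeding group. The smallest p was that of ADIPOR2 at Cfa.10882.1.A1_at (F = 2.78; adjusted p = 0.282), whose means over the 5 weeks ran from 13.08 ± 0.57 in dog 5 to 13.75 ± 0.36 in dog 2 (SD). Both are ad libitum dogs. ADIPOQ followed with F = 2.03 (adjusted p = 0.510), and CDH13 at CfaAffx.30575.1.S1_at had F = 0.67.

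The gene whose profile was most like that of ADIPOQ, among 9113 genes each at its brightest probe set, was ADIPOR2, with a Pearson correlation of 0.85 over the 45 arrays, closely followed by LPIN1, a phosphatidate phosphatase of triglyceride synthesis, at 0.84. Over the 35 arrays without muscle transcripts the order turned, with 0.84 for ADIPOR2 and 0.85 for LPIN1. The ranking holds for ADIPOR2 at Cfa.10882.1.A1_at. Over the 45 arrays Cfa.1030.1.S1_at correlated with ADIPOQ at 0.72. CfaAffx.24419.1.S1_at and CfaAffx.24419.1.S1_s_at both did at 0.67. LPIN1 was also the gene most like ADIPOR2, at 0.90. The other genes most like ADIPOQ were AUH, an enzyme of leucine breakdown (0.79), L3HYPDH (0.78) and CIDEA, a lipid droplet protein (0.77). These arrays share dogs, batches and RNA quality, so the values describe this set of samples.

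**Figure D5:**
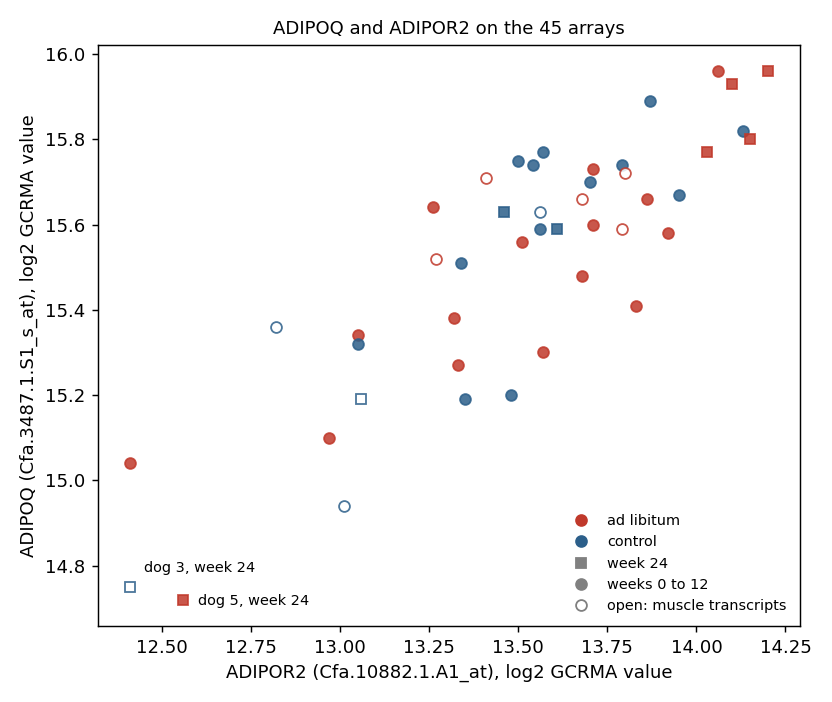
ADIPOQ at Cfa.3487.1.S1_s_at (y axis) against ADIPOR2 at Cfa.10882.1.A1_at (x axis), both as log2 GCRMA values, with 1 point per array, ad libitum in red and control in blue. Squares are week 24, circles weeks 0 to 12, and open symbols arrays with muscle transcripts. The 2 genes run together over the 45 arrays (0.85), and the week-24 arrays of dogs 5 and 3 lie lowest in ADIPOQ.

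ADIPOR1 had other neighbours. The genes most like it were HGSNAT, a lysosomal acetyltransferase (0.94), LCAT, which esterifies cholesterol in lipoproteins (0.93), and BCAP31, an endoplasmic reticulum chaperone (0.93). ADIPOR1 correlated at 0.63 with ADIPOR2 and 0.39 with ADIPOQ. LGALS12, a galectin of adipocytes, was among those most like ADIPOR2 (0.87). For CDH13 the closest were ENPP2, which makes lysophosphatidic acid (0.82), NPTN (0.76) and RECK (0.75). CDH13 at CfaAffx.30575.1.S1_at correlated at -0.30 with ADIPOR2 at Cfa.10882.1.A1_at, and over the 8 pairs of CDH13 and ADIPOR2 probe sets the correlations ran from -0.69 to -0.17.

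Genes around the pathway were counted at week 24 from lists, against 5.31% of 9113 genes called and a median log2 difference of 0.00 over all genes. The list calls are those of the main fit. List genes were not examined without the muscle arrays or with the actin gap as a covariate. Over all tested probe sets, 1238 were called at week 24 in the main fit and 29 with the actin covariate. Of the regulators of the ADIPOQ gene, 1 of 9 measured was called, SREBF1, a lipogenic transcription factor, at 5.74 ± 1.18 in ad libitum and 4.07 ± 0.31 in control dogs (SD; difference 1.67, adjusted p = 0.047), and the list's median was -0.24. SREBF1 was dim, with control values of 3.73 to 4.47 and ad libitum values of 3.91 to 6.81, near or little above the filter value of 4. PPARG, the nuclear receptor that drives ADIPOQ transcription, averaged 12.51 ± 0.87 in ad libitum and 11.73 ± 0.74 in control dogs (difference 0.79, adjusted p = 0.236). Of the genes for folding and secretion of the hormone, 0 of 12 measured were called, with a median of 0.01. Among them, the endoplasmic reticulum oxidase ERO1A differed by 0.45, the retention protein ERP44 by 0.22 and GSTK1, also known as DsbA-L, by 0.52, all with adjusted p of at least 0.205.

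Downstream of the receptors, the signalling list had 0 of 15 measured genes called, with a median of 0.12. The adaptor APPL1 differed by -0.37 and the kinase subunit PRKAA1 by 0.69, with adjusted p of 0.624 and 0.406. In the list of receptor targets, 2 of 15 measured genes were called, and the median was 0.13. Whether the receptors act on these genes in this tissue was not tested. The alkaline ceramidase ACER3 averaged 11.73 ± 0.89 in ad libitum and 9.58 ± 0.79 in control dogs (SD; difference 2.15, adjusted p = 0.00292). The sphingosine 1-phosphate receptor S1PR1 averaged 7.23 ± 0.92 in ad libitum and 5.50 ± 1.35 in control dogs (difference 1.73, adjusted p = 0.0443). The list was chosen to hold several sphingolipid genes. Among the others, the sphingosine kinase SPHK1 averaged 7.42 ± 0.18 in ad libitum and 7.99 ± 0.47 in control dogs. The ceramidase ACER2 averaged 7.08 ± 0.84 in ad libitum and 6.77 ± 0.49 in control dogs, and neither was called. PPARA averaged 6.54 ± 1.34 in ad libitum and 4.78 ± 0.99 in control dogs (difference 1.76, adjusted p = 0.077).

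Relatives of the members behaved unevenly. Of the PAQR family outside the 2 receptors only MMD had a tested probe set. PAQR3, PAQR4, PAQR5, PAQR7, PAQR8 and PAQR9 had probe sets on the array, but none was tested. MMD was called, at 11.36 ± 1.08 in ad libitum and 8.91 ± 0.51 in control dogs (SD; difference 2.44, adjusted p = 0.00161). Of the C1q and TNF related proteins, which share adiponectin's globular fold, 0 of 9 measured were called (median -0.01). Among the 15 adipocyte markers 4 were called, all higher in ad libitum dogs, with a list median of 1.12. These were LEP, the lipase LIPE (1.77, adjusted p = 0.0356), the triglyceride synthase DGAT2 (2.37, adjusted p = 0.00013) and the glycerol channel AQP7 (2.10, adjusted p = 0.0201). At weeks 0, 4, 8 and 12 none of the 76 measured genes of these 7 lists was called between the groups, where 0%, 0.0219%, 1.59% and 0.011% of all genes were. In the feeding effects at weeks 4, 8, 12 and 24 none was called either, nor was any of the 9113 genes.

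Within the ad libitum dogs, LEP was the one gene of these lists to be called in 3 of the 4 changes from week 0. Of all genes, 0.593% were called at week 4 and 0.856% at week 12. LEP rose at weeks 4 (2.99, adjusted p = 0.0498), 8 (3.39, adjusted p = 0.0103) and 24 (3.53, adjusted p = 0.00345). ACER2, another alkaline ceramidase, fell at weeks 4 (-1.78, adjusted p = 0.0433) and 12 (-2.28, adjusted p = 0.00427). FOXO1, a transcription factor that acts on the ADIPOQ promoter, fell at week 8 (-0.95, adjusted p = 0.0287), when 6.84% of genes were called. Control means of FOXO1 were 10.78 at week 0 and 10.48 at week 8. Those of LEP were 8.90, 9.42, 10.40 and 9.78 at weeks 0, 4, 8 and 24. Those of ACER2 were 6.39, 6.80 and 6.42 at weeks 0, 4 and 12. At week 24, when 5.01% of genes were called and the batch also changed, MMD rose (1.40, adjusted p = 0.0425). ID3, a repressor of the ADIPOQ gene, fell (-1.38, adjusted p = 0.00618), as did the insulin receptor substrate IRS1 (-1.39, adjusted p = 0.0245) and ACACA, which makes malonyl-CoA (-1.40, adjusted p = 0.0451). Control means at weeks 0 and 24 were 9.35 and 8.91 for MMD and 12.45 and 11.27 for ID3. They were 5.68 and 5.17 for IRS1 and 11.80 and 10.71 for ACACA.

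In the control dogs 2 of the 76 genes rose and 6 fell from week 0 to week 24, when 7.43% of genes were called and the batch also changed. Over all tested probe sets, 1797 were called in this contrast in the main fit and 8 with the actin covariate. The list genes were not examined with that covariate. NR5A2, a nuclear receptor (1.68, adjusted p = 0.0217), and the sphingosine kinase SPHK1 (0.91, adjusted p = 0.0462) rose. ID3 (-1.21, adjusted p = 0.0167) and GSTK1 (-0.88, adjusted p = 0.0343) fell, along with 4 adipocyte markers that included DGAT2 (-1.61), the glycerol phosphate enzyme GPD1 (-1.42) and the lipogenic factor THRSP (-3.33). In control dogs at weeks 4, 8 and 12 none of the 9113 genes was called, those of these lists included.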

How the data were processed

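Fat RNA from each dog and week was labelled by the one-cycle 3′ method and read on an Affymetrix canine array, per the labels' protocols. The deposited values are log2 intensities that the authors normalized with GCRMA, per the submitters' processing notes, with no version given. They ran from 0.42 to 17.51, and the log2 base was taken from that range and from what GCRMA writes. The number of arrays limits precision.

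Of 42924 probe sets that are not controls, the 22690 above 4 on at least 4 of 45 arrays were tested with limma 3.58.1 in R 4.3.3, with 1 mean per feeding group and week, laboratory batches 1 to 5 as terms, and the dog as a random block (estimated correlation 0.00562, with statmod 1.5.0). The same dog numbers pair the arrays of one animal, so the block is part of the design. P-values were adjusted by Benjamini-Hochberg over all tested probe sets at a threshold of 0.05. The fit of the week-24 difference was tested on simulated data with a dog correlation of 0.05. Of 50 changes of each size, it called 0 at a log2 size of 0.5, 15 at 1, 41 at 2 and 43 at 3. Of its 104 calls, 5 were false. Most of these 50 changes at each size of 1 or less were thus missed. On the measured arrays the week-24 difference had 1238 called probe sets, far more than these 104. The share missed at that number of calls was not tested. Genes in lists were counted at their brightest tested probe set, and a list gene is called measured where it had one.

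Every member probe set is described. Likeness names the 5 genes for ADIPOQ and 3 for each other member with the highest Pearson correlation. From each list and comparison the called genes with the smallest p were named, at most 3 in either direction, with PPARG, APPL1, PRKAA1, ERO1A, ERP44, GSTK1, PPARA and LEP in any case. CEBPA and PRKAA2 had no tested probe set. The members and lists were chosen with earlier results of these data known. Alternatives changed the batch term, block, filter, normalization, probe set summary, covariates, arrays and dogs included, and the test. Sequences and genome positions were not used here.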

Additional observations from a re-analysis of the deposited data

Results flagged for a closer look

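In 15 of the 90 groups of one probe set, feeding group and week, 1 dog stood far from the others of its group. Chance alone flags about 1 in 20 groups, and probe sets of one gene on one array are not independent.

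The array of ad libitum dog 5 at week 24 accounted for 6 of these. It was the low value of ADIPOQ at both probe sets, with 14.72 against 15.77 to 15.96 in the other 4 dogs at Cfa.3487.1.S1_s_at and 14.88 against 15.71 to 15.86 at Cfa.3487.1.S1_at. It was also the low value of all 4 ADIPOR2 probe sets. It read 12.56 against 14.03 to 14.20 at Cfa.10882.1.A1_at, and 8.41 against 10.51 to 10.91 at CfaAffx.24419.1.S1_at. At CfaAffx.24419.1.S1_s_at it read 7.99 against 10.29 to 10.77, and at Cfa.1030.1.S1_at 6.42 against 9.09 to 10.07. The actin gap of this array was 4.47, above the 2.37 to 4.10 of the other 4 ad libitum dogs, and its part in these values was not tested.

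At week 0 dog 5, whose array carried muscle transcripts, stood high in ADIPOQ at Cfa.3487.1.S1_at (15.70 against 15.52 to 15.54) and in CDH13 at CfaAffx.30575.1.S1_at (9.31 against 8.92 to 8.99). In the control group at week 0, dog 9 stood high in ADIPOR2 at Cfa.1030.1.S1_at (9.31 against 8.79 to 8.83) and in CDH13 at Cfa.20814.1.S1_s_at (8.15 against 7.75 to 7.82), and dog 3 stood low in CDH13 at CfaAffx.30575.1.S1_at (8.78 against 9.02 to 9.05).

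CDH13 gave 4 more. Ad libitum dog 6 at week 4 was low at both probe sets, with 8.75 against 9.51 to 9.69 at CfaAffx.30575.1.S1_at and 6.73 against 8.03 to 8.41 at Cfa.20814.1.S1_s_at. Control dog 4 at week 12 was high at Cfa.20814.1.S1_s_at (7.89 against 7.14 to 7.15). Control dog 3 at week 24 was high at CfaAffx.30575.1.S1_at (10.55 against 9.45 to 9.60).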

How the results depend on the processing

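The number of member probe sets called moved under several settings. Between groups at week 24 it was 0 in place of 1 without the muscle arrays, with the actin covariate, on the arrays of week 24 only and by exact permutation, and 0 to 6 with 1 dog left out (6 without dog 5, when 13.6% of all tested probe sets were called, and 0 without dogs 2, 3, 4, 6 or 7, when 1.05% to 3.02% were). At week 4 it was 1 with no batch term, CDH13 at 1.02 (adjusted p = 0.0440), with 1.71% of all called. In ad libitum dogs from week 0 to week 4 it was 1, ADIPOR1, with no batch term (1.29% of all called), with batch as a random block (1.07, adjusted p = 0.0370; 1.07% of all) and without dog 8 (1.20, adjusted p = 0.0235; 8.66% of all), and 0 to 1 over the dogs left out. To week 8 it was 0 to 1. In control dogs to week 24 it was 2 with no batch term (8.95% of all), 0 without the muscle arrays and with the actin covariate, and 0 to 2 over the dogs left out. In the joint test it was 0 to 3 (3 without dog 5, when 0.683% of all were called).

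The ADIPOR1 difference at week 24 kept its sign under all alternatives and stayed past the threshold in 14 of 23. It was 0.73 without the muscle arrays, 0.57 with the actin covariate and 1.01 on week 24 only (adjusted p = 0.121) and by permutation (adjusted p = 0.175), and 0.82 to 1.26 with 1 dog left out. The ADIPOR1 change to week 8 in ad libitum dogs stayed past it in 20 of 22, at 1.07 to 1.42 with 1 dog left out. The ADIPOR2 change at CfaAffx.24419.1.S1_at in control dogs did in 16 of 21. It was -1.12 without the muscle arrays, -1.17 with the actin covariate, and -1.79 to -1.40 with 1 dog left out. The causes were not tested. With the dog as a fixed replicate block, or with no replicate block, the ADIPOR1 change to week 8 was 1.19 (adjusted p = 0.0149) or 1.24 (adjusted p = 0.0122), and the block changed no call.

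Values changed sign in 51 of 2083 results and settings, none of them past the threshold in either setting. Without the muscle arrays these were ADIPOQ between groups at week 8 (0.063), CDH13 at week 8 (-0.23), ADIPOR1 at week 12 (-0.044), the feeding effects of ADIPOR2 at Cfa.10882.1.A1_at (0.036) and CDH13 (-0.29) at week 8 and ADIPOQ at week 24 (-0.20), and in control dogs ADIPOQ to week 12 (-0.089) and ADIPOR2 to week 24 (0.11). With the actin covariate they were ADIPOQ in ad libitum dogs to week 24 (0.0095), and in control dogs to week 24 ADIPOR1 (0.12, against -0.57 as reported) and ADIPOR2 (0.077). With no batch term they were, in ad libitum dogs, ADIPOR2 to week 4 (0.014) and ADIPOQ to weeks 8 (0.080) and 24 (0.010), and with batch as a random block ADIPOQ to week 8 (0.056). With the muscle mean as a covariate ADIPOQ in control dogs to week 12 was -0.057. With the mean of a gene's probe sets, CDH13 between groups was -0.022 at week 0 and 0.0069 at week 24, its feeding effect at week 24 was 0.029, and ADIPOR2 in ad libitum dogs to week 24 was -0.43, against 0.25 at its brightest probe set. Quantile normalization gave ADIPOQ 0.0093 at week 8, no filter gave ADIPOR1 -0.00069 at week 12, and without the week-8 arrays of dogs 5 and 9 ADIPOQ at week 8 was 0.015 and CDH13 at week 0 was -0.013.

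With 1 dog left out, the sign turned between groups for ADIPOR1 at week 0 (-0.25 to 0.12) and week 12 (-0.14 to 0.17), CDH13 at week 0 (-0.040 to 0.16) and week 8 (-0.066 to 0.50) and ADIPOQ at week 8 (-0.081 to 0.035). It turned in the feeding effects of CDH13 at week 8 (-0.13 to 0.44), ADIPOR1 at week 12 (-0.25 to 0.42) and ADIPOQ at week 24 (-0.043 to 0.31). It turned for ADIPOQ in ad libitum dogs to weeks 8 (-0.15 to 0.023) and 24 (-0.20 to 0.16) and in control dogs to week 12 (-0.071 to 0.24), and for ADIPOR2 in control dogs to week 24 (-0.29 to 0.14). Over the settings, the probe sets called at week 24 between the groups numbered 29 (actin covariate) to 3097 (without dog 5).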
